A study of Mus musculus with 8 samples.

Results

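The genes described here belong to families of enzymes that add or remove methyl groups on histones and DNA or remove acetyl groups from histones. Not every member has such an activity, the mitochondrial sirtuin Sirt5 being an example. The genes were chosen by symbol alone: the lysine demethylases (Kdm), the lysine methyltransferases (Kmt, Setd, Ezh1 and Ezh2), the histone deacetylases (Hdac), the sirtuins (Sirt), the DNA methyltransferases (Dnmt) and the Tet dioxygenases (Tet). The rule found 63 genes, measured by 153 probe sets, among 18193 genes with a probe set annotated to 1 symbol. Of these, 56 passed the signal filter, as 56 of the 11217 genes tested.

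Expression was measured on 8 Affymetrix arrays of polyclonal memory CD4 T cells, sorted from the spleens of mice at day 60 after infection with LCMV Armstrong, a virus strain that mice clear as an acute infection. The 4 groups were Rictor-null Tfh, WT Tfh, Rictor-null Th1 and WT Th1 cells, with 2 arrays per group, each from a separate pool of at least 10 mice. T follicular helper (Tfh) cells support antibody responses in B cell follicles, whereas T helper 1 (Th1) cells secrete interferon gamma. Rictor is an essential subunit of mTOR complex 2, a kinase complex upstream of AKT. All groups shared the infection and the time point. The part of Rictor that was deleted, the cells in which it was deleted, the sort gates and the age and sex of the mice are not stated in the labels.

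Methylation and acetylation of histone tails and methylation of cytosine set how open a gene is to transcription, and in CD4 T cells such marks hold a lineage's genes open or shut after the infection has passed. Kmt2 and Setd1 enzymes lay down an activating methyl mark on histone H3, and Ezh1 and Ezh2, as catalytic subunits of Polycomb repressive complex 2, lay down a repressive one. Demethylases of the Kdm families remove such marks, deacetylases remove acetyl groups, Dnmt enzymes methylate DNA, and Tet enzymes oxidise methylcytosine, which leads to its removal.

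The arrays were alike in their median signal (35.7 to 37.7). The SD between replicate arrays, pooled over the members on the log2 scale, was 0.0893 for Rictor-null Tfh, 0.0353 for WT Tfh, 0.0877 for Rictor-null Th1 and 0.0660 for WT Th1 cells. All 5 CD4 T cell markers listed were above the filter. The Tfh marker Cxcr5, the receptor that guides cells to B cell follicles, had signals of 241 and 297 in Rictor-null Tfh cells, 183 and 179 in WT Tfh cells, 52.7 and 50.04 in Rictor-null Th1 cells, and 55.7 and 46.8 in WT Th1 cells. The Th1 markers did not separate the lineages: Tbx21, the transcription factor that specifies Th1 cells, had a log2 difference of -0.011 between Rictor-null Tfh and Rictor-null Th1 cells (adjusted p = 0.936) and of -0.067 between WT Tfh and WT Th1 cells (adjusted p = 0.350). Of 5 B cell markers measured, Cd79a, Ms4a1 and Pax5 were below the filter on the arrays, while Cd79b and Cd22 passed it. Cd79b was not called for genotype or lineage. Cd22 had signals of 298 and 331 in Rictor-null Tfh cells, 352 and 337 in WT Tfh cells, 164 and 133 in Rictor-null Th1 cells, and 246 and 223 in WT Th1 cells. It was higher in Tfh than in Th1 cells in Rictor-null cells (0.95, adjusted p = 0.00201) and in WT cells (0.50, adjusted p = 0.0250), and fell with Rictor loss in Th1 cells (-0.57, adjusted p = 0.0129). The summed signal of the B cell list was 416 to 477 in Rictor-null Tfh, 459 to 461 in WT Tfh, 265 to 314 in Rictor-null Th1 and 341 to 375 in WT Th1 cells. The part of these markers in the differences of the members was not tested. Eomes, listed as a marker of NK cells and also expressed by some T cells, had signals of 1184 and 1030 in Rictor-null Tfh cells and 912 and 833 in WT Tfh cells, against 85.4 and 79.7 in Rictor-null Th1 cells and 66.9 and 68.3 in WT Th1 cells. The brightest probe set of Rictor did not differ between the genotypes (log2 difference 0.019 between Rictor-null and WT Tfh cells, adjusted p = 0.923; -0.074 between Rictor-null and WT Th1 cells, adjusted p = 0.652), so it could not be used to check the genotype labels.

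Among the members, the demethylase Kdm2b was the one whose genotype difference in both cell types passed the test under every alternative setting tried, single other probe sets apart. The others were Hdac4, a deacetylase, for genotype in Th1 cells, and Kdm1b, a demethylase, for lineage in Rictor-null cells. The RefSeq promoter windows of these 3 genes and of Kdm4a, whose genotype difference differed between the cell types, are shown because Kdm2b protein itself binds unmethylated CpG-rich promoters. They run from 250 bases before to 50 bases after the start, 5′ to 3′, in GRCm38.p6, with each CpG dinucleotide in capitals. The genes were chosen for display after their values had been seen.
Kdm2b (chr5:122989050-122989349, minus strand): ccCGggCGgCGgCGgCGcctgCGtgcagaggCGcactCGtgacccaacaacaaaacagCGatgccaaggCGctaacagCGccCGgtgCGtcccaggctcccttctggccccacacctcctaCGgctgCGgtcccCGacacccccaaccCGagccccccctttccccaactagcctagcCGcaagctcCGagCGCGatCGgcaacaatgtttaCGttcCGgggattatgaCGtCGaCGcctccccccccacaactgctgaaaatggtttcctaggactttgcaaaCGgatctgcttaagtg
Hdac4 (chr1:92180292-92180591, minus strand): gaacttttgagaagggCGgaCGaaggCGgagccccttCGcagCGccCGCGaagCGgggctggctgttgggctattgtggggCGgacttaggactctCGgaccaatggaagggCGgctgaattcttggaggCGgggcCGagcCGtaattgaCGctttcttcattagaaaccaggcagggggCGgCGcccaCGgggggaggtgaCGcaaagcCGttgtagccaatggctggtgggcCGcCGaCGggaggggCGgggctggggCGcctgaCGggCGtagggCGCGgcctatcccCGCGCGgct
Kdm1b (chr13:47043249-47043548, plus strand): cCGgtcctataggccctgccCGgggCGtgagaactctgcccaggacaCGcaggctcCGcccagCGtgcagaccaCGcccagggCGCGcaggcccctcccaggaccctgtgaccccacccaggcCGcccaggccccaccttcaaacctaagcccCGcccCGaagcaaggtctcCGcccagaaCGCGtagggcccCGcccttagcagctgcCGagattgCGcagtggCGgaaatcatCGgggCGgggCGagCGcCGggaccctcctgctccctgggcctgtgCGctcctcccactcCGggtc
Kdm4a (chr4:118179994-118180293, minus strand): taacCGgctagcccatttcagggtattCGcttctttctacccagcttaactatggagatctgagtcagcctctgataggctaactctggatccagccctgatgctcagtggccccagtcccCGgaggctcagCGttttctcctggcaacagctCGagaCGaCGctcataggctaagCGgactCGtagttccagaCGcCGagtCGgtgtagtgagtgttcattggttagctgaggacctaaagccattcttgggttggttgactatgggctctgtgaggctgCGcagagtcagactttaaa
The windows held 28 CpG dinucleotides for Kdm2b, 32 for Hdac4, 26 for Kdm1b and 13 for Kdm4a. The median was 21.5 over the 52 members with a window in the RefSeq table and 7 over all 27025 genes. All genes include ones that did not pass the signal filter, and the genes tested were not compared separately. The medians therefore do not show a trait particular to these enzymes. For a gene with several starts, the most upstream one was used. Median GC content was 61.2% over the members and 52.7% over all genes. The motif GTAAACA, which FOXO factors downstream of AKT are known to bind, was found on either strand in 1 of the 52 members (1.92%), Kdm2b, and in 3.52% of all windows. The motif CCGGAAG, bound by ETS factors, was found on either strand in 8 of the 52 members (15.4%) and in 9.14% of all windows. A match describes the letters in the window and does not mark a site in use.

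In Tfh cells, 8 members rose and 1 fell with Rictor loss, and 5 of the 8 that rose were lysine demethylases. Rises and falls are those with an adjusted p under 0.05 from limma over all genes tested, and differences are of log2(signal + 32), which understates those of dim genes. The 9 members called were 9 of 56, where 13.6% of all genes tested were called. The 8 that rose stood beside 11.3% of all genes called higher, and the 1 that fell beside 2.31% called lower. The median difference was 0.028 over the members and 0.039 over all genes. The split between rises and falls depended on scaling: after quantile normalization 3 members rose and 2 fell (60.8% of all genes called were higher), and after median centring 2 rose and 2 fell (45.9%). In RNA from a whole sorted population, a change in the make-up of the population and a change of RNA per cell cannot be told apart.

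Kdm2b, which demethylates histone H3 and brings a variant Polycomb repressive complex 1 to CpG islands, had signals of 722 and 654 in Rictor-null Tfh cells, against 484 and 493 in WT Tfh cells. Both Rictor-null arrays lay above both WT arrays. The difference was 0.47 ± 0.0706 (log2, SE, n = 2 each, adjusted p = 0.00166), a 1.38-fold higher value. A second probe set of the gene had signals of 372 and 326 in Rictor-null Tfh cells and 245 and 227 in WT Tfh cells, with a difference of 0.50 (adjusted p = 0.00960 over all probe sets of 1 symbol).

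Kdm6b, which removes the repressive methyl mark laid down by Ezh2 and is induced in activated T cells, had signals of 1925 and 2017 in Rictor-null Tfh cells, against 1587 and 1591 in WT Tfh cells. The groups did not overlap, and the difference was 0.31 ± 0.0560 (adjusted p = 0.00546). Its other probe sets past the filter were also called, with differences of 0.47 (adjusted p = 0.00468) and 0.67 (adjusted p = 0.0405). The brightest probe set is of a type whose probes may also match other transcripts. Kdm7a, a demethylase of repressive histone marks, had signals of 676 and 649 in Rictor-null Tfh cells and 532 and 554 in WT Tfh cells, a difference of 0.27 ± 0.0656 (adjusted p = 0.0220).

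Kdm5b, which removes the activating mark that Kmt2 enzymes lay down, had signals of 217 and 195 in Rictor-null Tfh cells, against 167 and 170 in WT Tfh cells, and rose by 0.25 ± 0.0615 (adjusted p = 0.0240). Kdm4a, which acts on repressive and on transcription-linked methyl marks of histone H3, had signals of 112 and 114 in Rictor-null Tfh cells, against 88.8 and 92.2 in WT Tfh cells. It rose by 0.24 ± 0.0557 (adjusted p = 0.0175). The other enzymes that rose included a pair of lysine methyltransferases. Kmt5b, which methylates histone H4, had signals of 564 and 615 in Rictor-null Tfh cells and 494 and 499 in WT Tfh cells (difference 0.23 ± 0.0591, adjusted p = 0.0271). Setd2, which methylates histone H3 along transcribed gene bodies, had signals of 340 and 384 in Rictor-null Tfh cells and 306 and 301 in WT Tfh cells (difference 0.23 ± 0.0636, adjusted p = 0.0389). Sirt5, a mitochondrial sirtuin known for removing succinyl groups, had signals of 84.9 and 91.2 in Rictor-null Tfh cells and 70.7 and 67.4 in WT Tfh cells (difference 0.25 ± 0.0586, adjusted p = 0.0198). In each of these genes both Rictor-null arrays lay above both WT arrays. Random order alone sets 2 arrays apart from 2 with a probability of 0.333. The groups were also apart in uncalled members such as Hdac3, and the share over all genes was not counted.

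Tet1 was the member that fell. Its signals were 33.8 and 35.0 in Rictor-null Tfh cells, against 44.1 and 44.0 in WT Tfh cells, close to the array medians. Both Rictor-null Tfh signals lay below their array medians (36.8 and 37.3), so Tet1 passed the filter on arrays of the other groups. It fell by 0.20 ± 0.0576 (adjusted p = 0.0474). Leaving out a Tfh array left 1 array in its group. Over all genes tested, calls for genotype in Tfh cells became fewer without any 1 array but Rictor-null Tfh replicate 1. The calls lost in those fits therefore cannot be told apart from the loss of replication. Of the 9 calls, that of Kdm2b alone held when either WT Tfh array was left out. Without Rictor-null Tfh replicate 2, Kdm4a, Kmt5b, Setd2, Sirt5 and Tet1 were lost, and without Rictor-null Tfh replicate 1, Kdm5b and Tet1. Setd2 and Tet1 were also lost whichever Th1 array was left out. The Tet1 call was thus kept in none of the fits that left out 1 array.

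**Figure D1:**
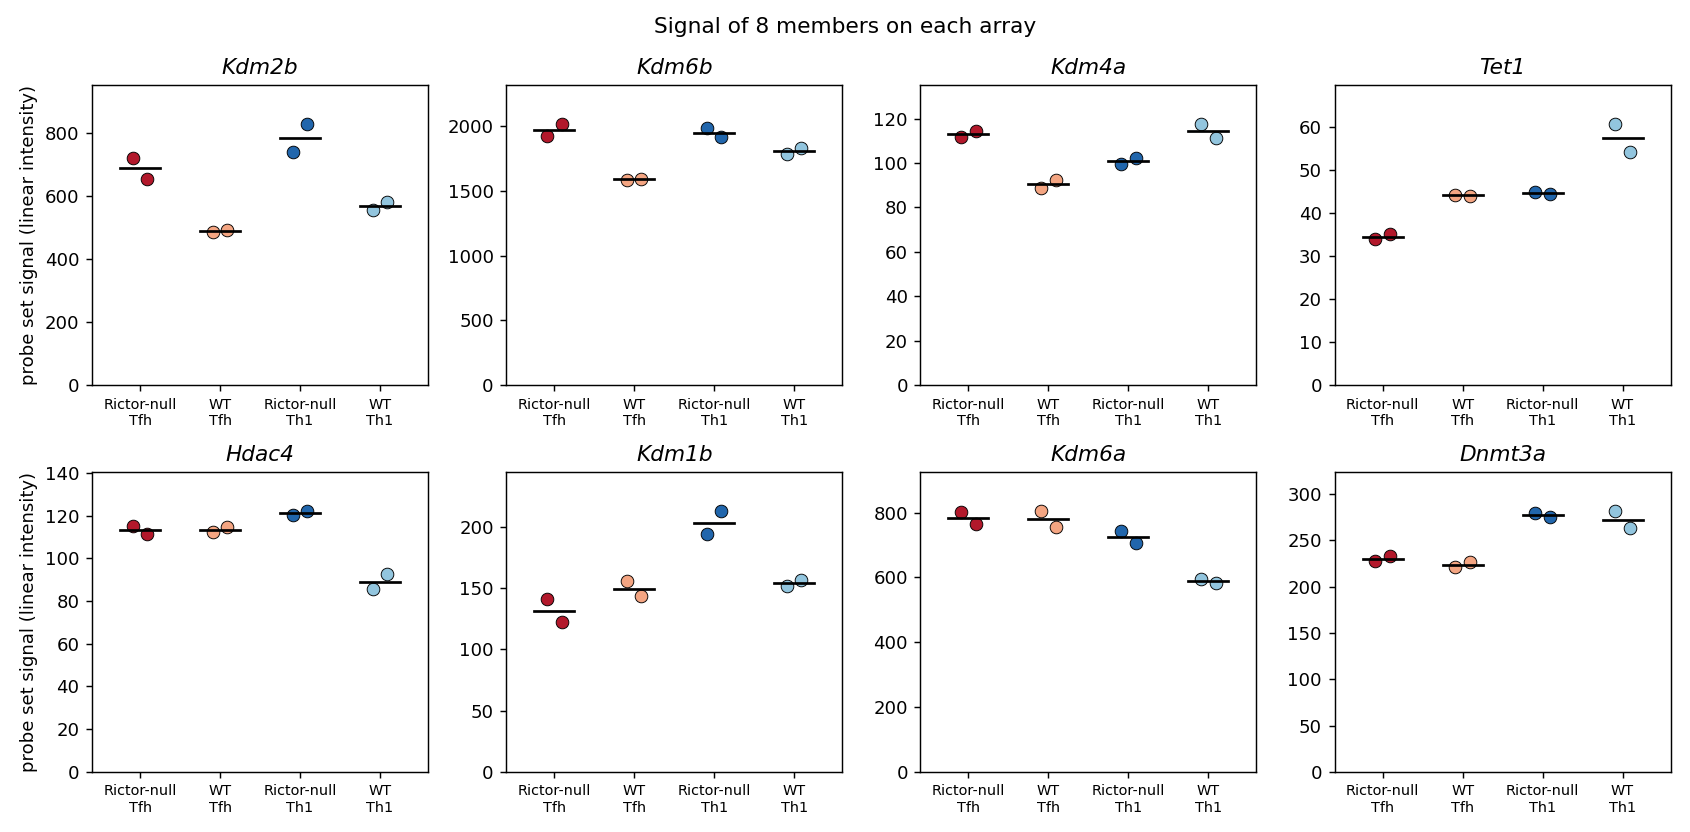
Probe set signal (linear intensity, vertical axis from 0) of 8 members on each of the 8 arrays, with points for arrays and bars for group means; the groups run from Rictor-null Tfh to WT Th1. Kdm2b was higher on both Rictor-null arrays of each cell type, Tet1 was lower, and Hdac4 and Kdm6a were lowest in WT Th1 cells.

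In Th1 cells, 5 members rose and 1 fell with Rictor loss, and 4 of the 5 that rose were again lysine demethylases. The 6 members called were 6 of 56, where 10.5% of all genes tested were called. The 5 that rose stood beside 7.55% of all genes called higher, and the 1 that fell beside 2.97% called lower. The median difference was 0.030 over the members and -0.00010 over all genes. After quantile normalization or median centring 4 members rose and 3 fell (55.4% and 51.5% of all genes called were higher).

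Kdm2b had signals of 741 and 829 in Rictor-null Th1 cells, against 556 and 581 in WT Th1 cells. It rose by 0.44 ± 0.0706 (adjusted p = 0.00225), and the second probe set by 0.62 (408 and 407 in Rictor-null Th1 cells against 250 and 260 in WT Th1 cells, adjusted p = 0.00467). The comparisons in Tfh and Th1 cells have no array in common, but they share the spread estimated in 1 fit. Both called Kdm2b higher and Tet1 lower. These made up 22.2% of the 9 members called in Tfh cells and 33.3% of the 6 called in Th1 cells. The Tet1 call in Tfh cells was lost whichever array was left out, and no other Tet1 probe set passed the filter. Over all genes, 558 were called in the same direction in both, 36.5% of those called in Tfh cells and 47.3% of those called in Th1 cells.

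Hdac4, a class IIa deacetylase that moves between nucleus and cytoplasm with phosphorylation, had signals of 120 and 122 in Rictor-null Th1 cells, against 85.6 and 92.6 in WT Th1 cells. WT Th1 cells were the low group of the 4, since both groups of Tfh cells lay between 112 and 115. The difference was 0.34 ± 0.0566 (adjusted p = 0.00288). Another probe set of Hdac4 past the filter, at lower signal, gave 0.13 for genotype in Th1 cells (adjusted p = 0.331), and 0.33 in Tfh cells, where it was called (adjusted p = 0.0384).

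Kdm1b, a flavin-dependent demethylase of histone H3 with 1 probe set, had signals of 194 and 213 in Rictor-null Th1 cells, against 151 and 156 in WT Th1 cells. It was highest in Rictor-null Th1 cells, with a difference of 0.34 ± 0.0714 (adjusted p = 0.0113). Kdm6a, the X-linked relative of Kdm6b that erases the same repressive mark, had signals of 743 and 705 in Rictor-null Th1 cells, against 595 and 584 in WT Th1 cells (difference 0.28 ± 0.0602, adjusted p = 0.0128). Its other probe sets past the filter had differences of 0.50 (adjusted p = 0.234) and 0.12 (adjusted p = 0.751). Kdm5a, a relative of Kdm5b, had signals of 732 and 712 in Rictor-null Th1 cells, against 609 and 639 in WT Th1 cells (difference 0.20 ± 0.0569, adjusted p = 0.0476). Tet1 fell by 0.22 ± 0.0576, with signals of 44.8 and 44.3 in Rictor-null Th1 cells against 60.6 and 54.1 in WT Th1 cells (adjusted p = 0.0324). The groups did not overlap in any of these 6 genes. They did not overlap in uncalled members such as Hdac3 either, and the share over all genes was not counted.

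Leaving out a Th1 array left 1 array in its group, and calls became fewer over all genes tested as well. Kdm2b and Hdac4 were called whichever array was left out. Without WT Th1 replicate 1 the other 4 were lost (adjusted p from 0.0600 to 0.275), without Rictor-null Th1 replicate 1 Kdm5a, Kdm6a and Tet1 (0.108 to 0.208), without Rictor-null Th1 replicate 2 Kdm1b, Kdm5a and Tet1 (0.103 to 0.135), without WT Th1 replicate 2 Kdm5a and Kdm6a (0.0695 and 0.0839), and without either WT Tfh array Kdm5a and Tet1 (0.0723 and 0.0922). Kdm6b had signals of 1983 and 1917 in Rictor-null Th1 cells and 1788 and 1830 in WT Th1 cells, and was not called on its brightest probe set (difference 0.11). The next probe set gave 0.40 (adjusted p = 0.00781) and a dimmer one -0.51 (adjusted p = 0.0966), so its probe sets disagreed.

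Some genes of DNA replication and the cell cycle were called for genotype too. Of 16 tested from a list of 20, 3 rose in Tfh cells (Birc5, Top2a and Mki67), where 11.3% of all genes did, and 13 did not pass the test. In Th1 cells 7 of the 16 rose (Mki67, Rrm2, Ccnb2, Birc5, Top2a, Cenpa and Mcm6), where 7.55% of all genes did, and 0 fell in either cell type. Their summed signal was 8209 and 8759 in Rictor-null Tfh cells against 7872 and 7891 in WT Tfh cells, and 8031 and 8037 in Rictor-null Th1 cells against 7996 and 7530 in WT Th1 cells. Markers of T cell subsets differed between the genotypes as well. The summed signal of 6 Tfh markers was 4630 to 4850 in Rictor-null Tfh cells against 3115 to 3181 in WT Tfh cells, and 3259 to 3414 in Rictor-null Th1 cells against 2455 to 2589 in WT Th1 cells. The summed signal of 3 regulatory T cell markers was 1916 to 1972 in Rictor-null Tfh cells against 1102 to 1104 in WT Tfh cells, and 1249 to 1374 in Rictor-null Th1 cells against 823 to 871 in WT Th1 cells. Most of it was Ikzf2, which rose by 0.82 with Rictor loss in Tfh cells (adjusted p = 0.000417) and by 0.62 with its loss in Th1 cells (adjusted p = 0.000996), while Foxp3, the defining factor of regulatory T cells, was below the filter. Of 6 myeloid markers, Cd68 rose in Tfh cells (0.38, adjusted p = 0.0309), and the list's sum was 208 to 236 in Rictor-null Tfh cells against 200 to 213 in WT Tfh cells. The part of any of these in the differences of the members was not tested.

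**Figure D2:**
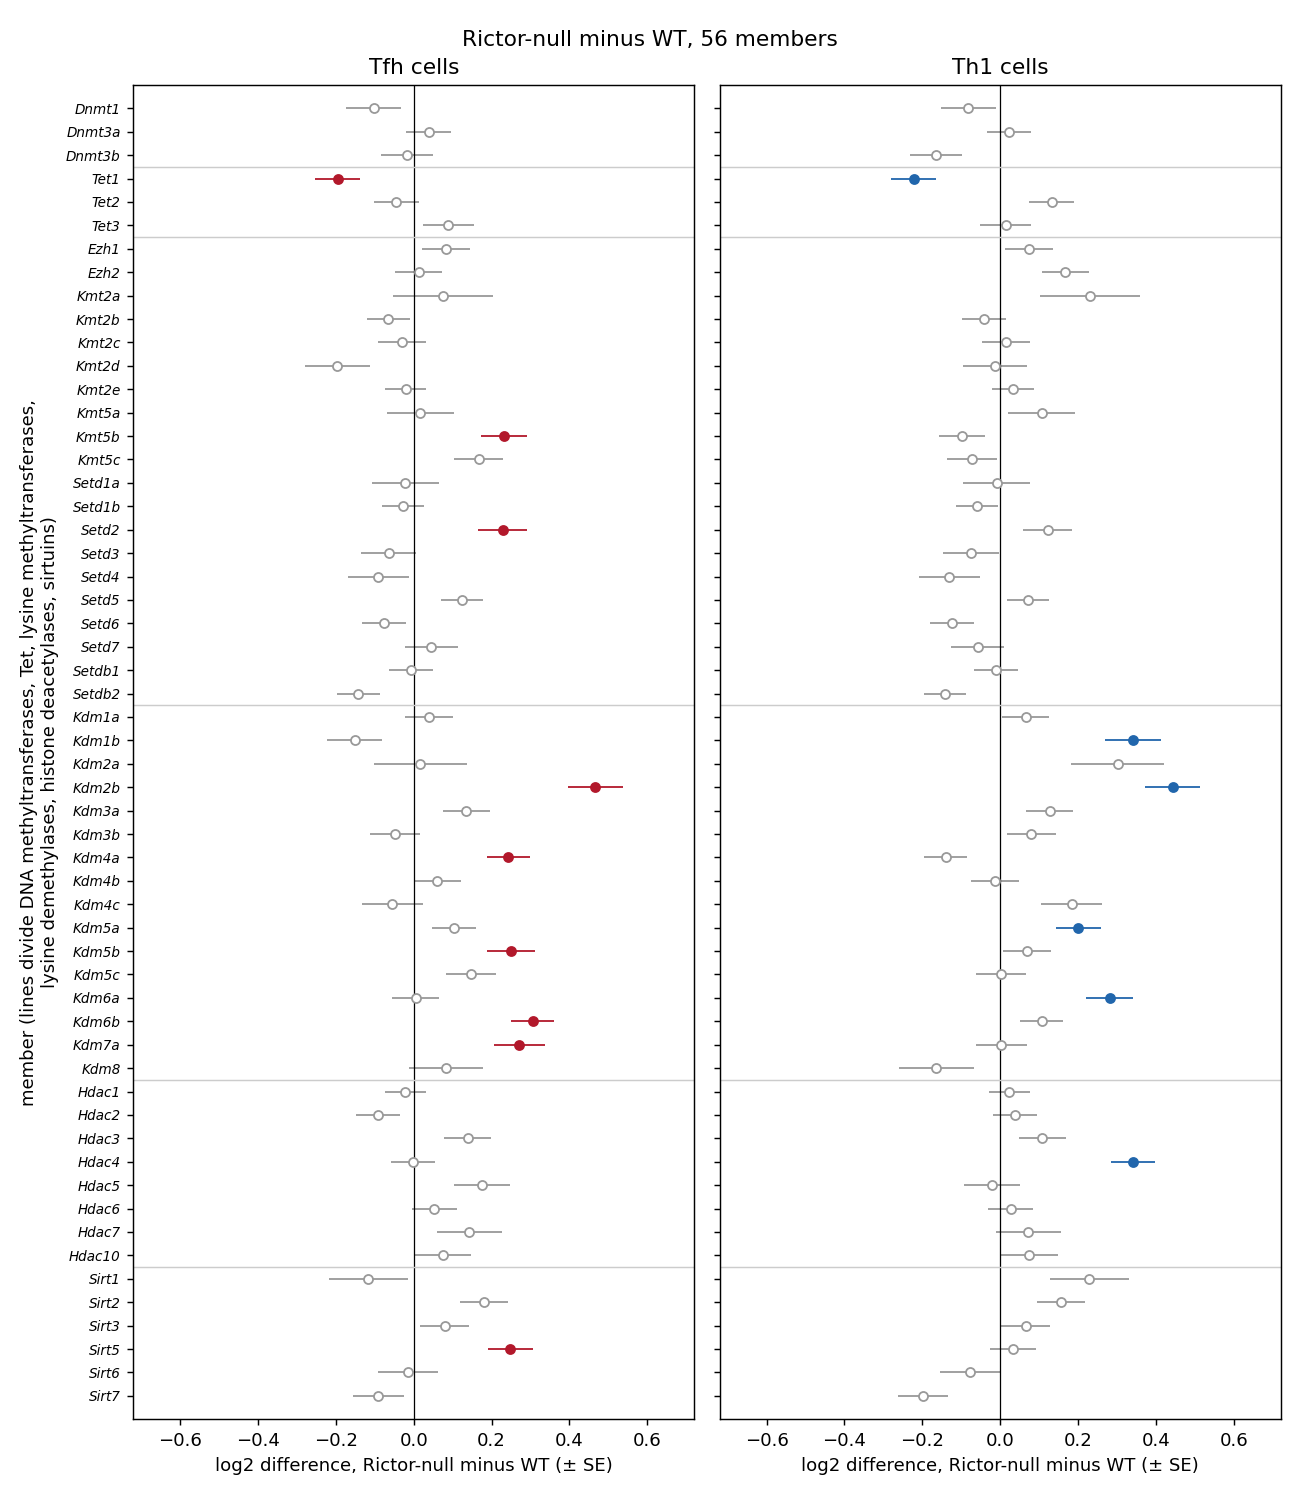
Log2 difference, Rictor-null minus WT, with its SE for the 56 members past the filter, in Tfh cells (left) and Th1 cells (right), by enzyme family; filled points passed the test. Of the filled points, 5 of 9 in Tfh cells and 4 of 6 in Th1 cells are lysine demethylases on the positive side.

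By family, the lysine demethylases held most of the genotype calls: 5 of the 16 tested rose in Tfh cells and 4 in Th1 cells, 0 fell in either, and the median differences were 0.094 and 0.093. Over all genes tested, 11.3% were called higher in Tfh cells and 7.55% in Th1 cells. In each cell type 13 of the 16 differences were above 0, where 60.7% of all genes tested were in Tfh cells and 49.95% in Th1 cells. These counts depended on scaling. After median centring 9 of the 16 were above 0 in Tfh cells and 11 in Th1 cells, with 2 and 3 called higher, and after quantile normalization 10 were above 0 in each, with 2 and 3 called higher. The lysine methyltransferases had 2 called of 20 in Tfh cells and 0 in Th1 cells, where 2 of the 20 had an unadjusted p under 0.05, with medians of -0.014 and -0.012. The Polycomb enzyme Ezh2 had signals of 464 and 494 in Rictor-null Tfh cells against 484 and 465 in WT Tfh cells (difference 0.013 ± 0.0600), and 483 and 507 in Rictor-null Th1 cells against 428 and 446 in WT Th1 cells (0.17 ± 0.0600, adjusted p = 0.109). Ezh1, its paralog, which prevails in resting cells, had differences of 0.083 in Tfh cells and 0.075 in Th1 cells, neither of which passed the test. Kmt2a, an MLL enzyme, had 994 and 706 in Rictor-null Th1 cells against 743 and 676 in WT Th1 cells, so that its Rictor-null arrays lay further apart than the group means (difference 0.23 ± 0.128). Kdm2a, the paralog of Kdm2b, showed the same spread, with 729 and 524 in Rictor-null Th1 cells against 521 and 471 in WT Th1 cells (0.30 ± 0.119, adjusted p = 0.145).

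The DNA methyltransferases were not called for genotype in either cell type. Of the 3 tested, 0 had an unadjusted p under 0.05 in Tfh cells and 1 in Th1 cells. Dnmt1, the maintenance methyltransferase, had signals of 342 and 398 in Rictor-null Tfh cells against 393 and 404 in WT Tfh cells (difference -0.10 ± 0.0704, adjusted p = 0.344), and 384 and 402 in Rictor-null Th1 cells against 422 and 413 in WT Th1 cells (-0.082 ± 0.0704, adjusted p = 0.517). Tet2, a tumour suppressor of blood cells, had 539 and 523 in Rictor-null Tfh cells against 557 and 541 in WT Tfh cells (-0.044), and 602 and 568 in Rictor-null Th1 cells against 523 and 539 in WT Th1 cells (0.13, adjusted p = 0.184). The groups did not overlap in either cell type, with opposite order. Tet3 had genotype differences of 0.089 in Tfh cells and 0.014 in Th1 cells, Dnmt3a of 0.038 and 0.022, and Dnmt3b of -0.018 and -0.17, none of them called.

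Among the deacetylases, Hdac4 in Th1 cells was the one genotype call of 8 tested. Hdac1, a catalytic subunit of the Sin3, NuRD and CoREST complexes, varied little, with signals of 517 and 520 in Rictor-null Tfh cells against 525 and 528 in WT Tfh cells, and 519 and 523 in Rictor-null Th1 cells against 516 and 508 in WT Th1 cells. Hdac3, the catalytic subunit of the NCoR complex, differed by 0.14 between Rictor-null and WT Tfh cells (adjusted p = 0.148) and by 0.11 between Rictor-null and WT Th1 cells (adjusted p = 0.297). The class II enzymes Hdac5 (0.18), Hdac6 (0.053), Hdac7 (0.14) and Hdac10 (0.075) had differences above 0 in Tfh cells that did not pass the test, and in Th1 cells they lay between -0.020 and 0.075. Hdac2, the paralog of Hdac1, had differences of -0.092 in Tfh cells and 0.038 in Th1 cells. Among the 6 sirtuins tested, Sirt5 in Tfh cells was the one called for genotype. Sirt1, the nuclear sirtuin, had signals of 378 and 295 in Rictor-null Tfh cells against 370 and 359 in WT Tfh cells (difference -0.12 ± 0.102), and 441 and 472 in Rictor-null Th1 cells against 355 and 416 in WT Th1 cells (0.23, adjusted p = 0.194). Sirt2, a mainly cytosolic sirtuin, was 336 and 368 in Rictor-null Tfh cells against 307 and 306 in WT Tfh cells (0.18, adjusted p = 0.0801), and 393 and 368 in Rictor-null Th1 cells against 340 and 336 in WT Th1 cells (0.16, adjusted p = 0.148). Sirt7, a nucleolar sirtuin, was 981 and 1080 in Rictor-null Tfh cells against 1113 and 1084 in WT Tfh cells (-0.091), and 1093 and 1047 in Rictor-null Th1 cells against 1273 and 1193 in WT Th1 cells (-0.20, adjusted p = 0.0812). The genotypes did not overlap in either cell type for these 2 sirtuins, yet the test was not passed. Mitochondrial Sirt3 and chromatin-bound Sirt6 had genotype differences between -0.079 and 0.080.

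The genotype difference itself differed between Tfh and Th1 cells for 2 of the 56 members, where 1.21% of all genes tested were called. For Kdm4a the difference in Tfh cells exceeded that in Th1 cells by 0.38 ± 0.0788 (adjusted p = 0.0466): it rose in Tfh cells, and in Th1 cells it had signals of 99.5 and 102 in Rictor-null cells against 118 and 111 in WT cells. For Kdm1b the difference in Tfh cells was below that in Th1 cells by 0.49 ± 0.101 (interaction -0.49, adjusted p = 0.0461): it rose in Th1 cells, and in Tfh cells it had 141 and 122 in Rictor-null cells against 155 and 144 in WT cells. Both calls were close to the threshold and were lost without any 1 of 7 arrays, Rictor-null Tfh replicate 1 being the exception. Over all genes tested, interaction calls also became fewer without each of those 7 arrays.

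Between the lineages, members were more often lower than higher in Tfh cells. In Rictor-null cells 8 of 56 members were called (9.72% of all genes tested): 2 were higher in Tfh cells, where 3.27% of all genes were, and 6 were lower, where 6.45% were. In WT cells 15 of 56 were called (14.7% of all genes tested): 3 were higher in Tfh cells, where 3.09% of all genes were, and 12 were lower, where 11.6% were. The median difference, Tfh minus Th1, was -0.10 in Rictor-null cells, where that of all genes was -0.012, and -0.10 in WT cells, where that of all genes was -0.057. After quantile normalization 2 members were higher and 4 lower in Rictor-null cells (45.2% of all genes called were higher) and 3 higher and 5 lower in WT cells (42.4%). After median centring the counts were 2 higher and 3 lower in Rictor-null cells (51.6%) and 3 higher and 3 lower in WT cells (59.5%).

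The DNA methyltransferase Dnmt3a, which sets new methylation patterns, was lower in Tfh cells of both genotypes. Its signals were 228 and 233 in Rictor-null Tfh cells against 279 and 275 in Rictor-null Th1 cells, and 221 and 226 in WT Tfh cells against 282 and 263 in WT Th1 cells. The differences were -0.24 ± 0.0570 in Rictor-null cells (adjusted p = 0.0264) and -0.25 ± 0.0570 in WT cells (adjusted p = 0.0192). After quantile normalization 0 DNA methyltransferases were called lower in either genotype, and after median centring 0 in WT cells and 1 in Rictor-null cells. Of 4 other Dnmt3a probe sets past the filter, 3 had the same sign in Rictor-null cells and 4 in WT cells, with 0 called. Kmt2c, an MLL enzyme that marks enhancers, had 642 and 631 in Rictor-null Tfh cells against 786 and 819 in Rictor-null Th1 cells (-0.32 ± 0.0616, adjusted p = 0.00899). In WT cells it had 652 and 649 in Tfh cells against 756 and 833 in Th1 cells (-0.28 ± 0.0616, adjusted p = 0.0185).

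Setd5, a SET-domain chromatin regulator, had 420 and 405 in Rictor-null Tfh cells against 486 and 480 in Rictor-null Th1 cells (-0.21 ± 0.0539, adjusted p = 0.0334), and 376 and 375 in WT Tfh cells against 460 and 456 in WT Th1 cells (-0.27 ± 0.0539, adjusted p = 0.0131). Tet1, with the signals given above, was lower in Tfh cells by -0.21 ± 0.0576 in Rictor-null cells (adjusted p = 0.0489) and -0.23 ± 0.0576 in WT cells (adjusted p = 0.0268). These 4 genes were called in both lineage comparisons, which share no array but do share the spread estimated in 1 fit. They made up 50% of the 8 members called in Rictor-null cells and 26.7% of the 15 called in WT cells. For all genes tested the shares were 37.2% and 24.6%. In each of the 4, the Tfh and Th1 arrays of a genotype did not overlap. The same held for Setdb2, which was called in neither comparison, and the share over all genes was not counted.

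In Rictor-null cells Kdm1b had the largest lineage difference of the members, -0.53 ± 0.0714 (adjusted p = 0.00114), with signals of 141 and 122 in Tfh cells against 194 and 213 in Th1 cells. In WT cells its signals were 155 and 144 in Tfh cells against 151 and 156 in Th1 cells, so the groups overlapped. Sirt1 was lower in Rictor-null Tfh cells than in Rictor-null Th1 cells by -0.42 ± 0.102 (adjusted p = 0.0281). Kdm5b and Tet3 were higher. Kdm5b had 217 and 195 in Rictor-null Tfh cells against 170 and 163 in Rictor-null Th1 cells (0.26 ± 0.0615, adjusted p = 0.0226). Tet3, which oxidises methylcytosine as Tet1 does, had 125 and 111 in Rictor-null Tfh cells against 99.8 and 89.5 in Rictor-null Th1 cells (0.24 ± 0.0655, adjusted p = 0.0434). Over all genes tested, calls for lineage in Rictor-null cells became fewer without any 1 array but Rictor-null Tfh replicate 1. Of the member calls, that of Kdm1b alone held whichever array was left out. Without Rictor-null Th1 replicate 2 the other 7 were lost (adjusted p from 0.0693 to 0.231), and without Rictor-null Th1 replicate 1 or either WT Tfh array all but Kdm1b and Kmt2c (0.0509 to 0.196). Without Rictor-null Tfh replicate 1 Kdm5b, Tet1 and Tet3 were lost (0.0651 to 0.125), without Rictor-null Tfh replicate 2 Setd5, Sirt1 and Tet1 (0.0831 to 0.118), and without either WT Th1 array Tet1 and Tet3 (0.0516 and 0.0581).

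In WT cells Kdm6a was higher in Tfh cells, with signals of 805 and 755 against 595 and 584 in Th1 cells (0.39 ± 0.0602, adjusted p = 0.00353). Hdac4 had 112 and 115 in WT Tfh cells against 85.6 and 92.6 in WT Th1 cells (0.27 ± 0.0566, adjusted p = 0.0156). Another Hdac4 probe set past the filter, at lower signal, gave the opposite sign and was not called (-0.22, adjusted p = 0.0955). Kdm5a had 749 and 720 in WT Tfh cells against 609 and 639 in WT Th1 cells (0.22 ± 0.0569, adjusted p = 0.0284). These 3 genes were also called for genotype in Th1 cells, a comparison that shares the WT Th1 arrays, and on every array of the other 3 groups they lay above both WT Th1 arrays.

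The 12 members lower in WT Tfh cells included 5 of the 20 lysine methyltransferases tested. They also included 2 of the 3 DNA methyltransferases tested, both of them de novo enzymes. Over all genes tested, 11.6% were called lower. These counts depended on scaling. After quantile normalization 3 lysine methyltransferases and 0 DNA methyltransferases were called lower, and after median centring 2 and 0. Kmt5c, which trimethylates histone H4, had 105 and 107 in WT Tfh cells against 141 and 137 in WT Th1 cells (-0.31 ± 0.0637, adjusted p = 0.0141). Dnmt3b had 109 and 109 in WT Tfh cells against 137 and 138 in WT Th1 cells (-0.27 ± 0.0662, adjusted p = 0.0265). Hdac5, a class IIa relative of Hdac4, had 109 and 108 in WT Tfh cells against 143 and 135 in WT Th1 cells (-0.28 ± 0.0721, adjusted p = 0.0285). That was the opposite direction to the brightest probe set of Hdac4, and the same direction as its dimmer one past the filter. Setd1b, a COMPASS methyltransferase, had a difference of -0.20 ± 0.0538 (adjusted p = 0.0351). Sirt5 had 70.7 and 67.4 in WT Tfh cells against 86.6 and 93.0 in WT Th1 cells (-0.27 ± 0.0586, adjusted p = 0.0168). Kdm4a had 88.8 and 92.2 in WT Tfh cells against 118 and 111 in WT Th1 cells (-0.26 ± 0.0557, adjusted p = 0.0165). Kdm7a (-0.23) and Kmt5b (-0.24) were lower as well, and these 4 genes were also called for genotype in Tfh cells, a comparison that shares the WT Tfh arrays.

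Leaving out a WT array left 1 array in its group, and lineage calls in WT cells then became fewer over all genes tested as well. The median difference over the members lay between -0.13 and -0.096 in those fits, against -0.10 with all arrays. The calls lost with a WT array out therefore cannot be told apart from the loss of replication. Without WT Tfh replicate 1, 0 of the 15 were called (adjusted p from 0.0659 to 0.232), without WT Tfh replicate 2 only Kdm6a (others 0.0995 to 0.212), and without WT Th1 replicate 1 Kdm6a and Kmt2c (others 0.0523 to 0.176). Without WT Th1 replicate 2, Dnmt3a, Hdac4, Kdm4a, Kdm6a, Kmt5c and Tet1 were called and 9 were lost (0.0524 to 0.141), and without either Rictor-null Th1 array Setd1b was lost (0.0508).

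**Figure D3:**
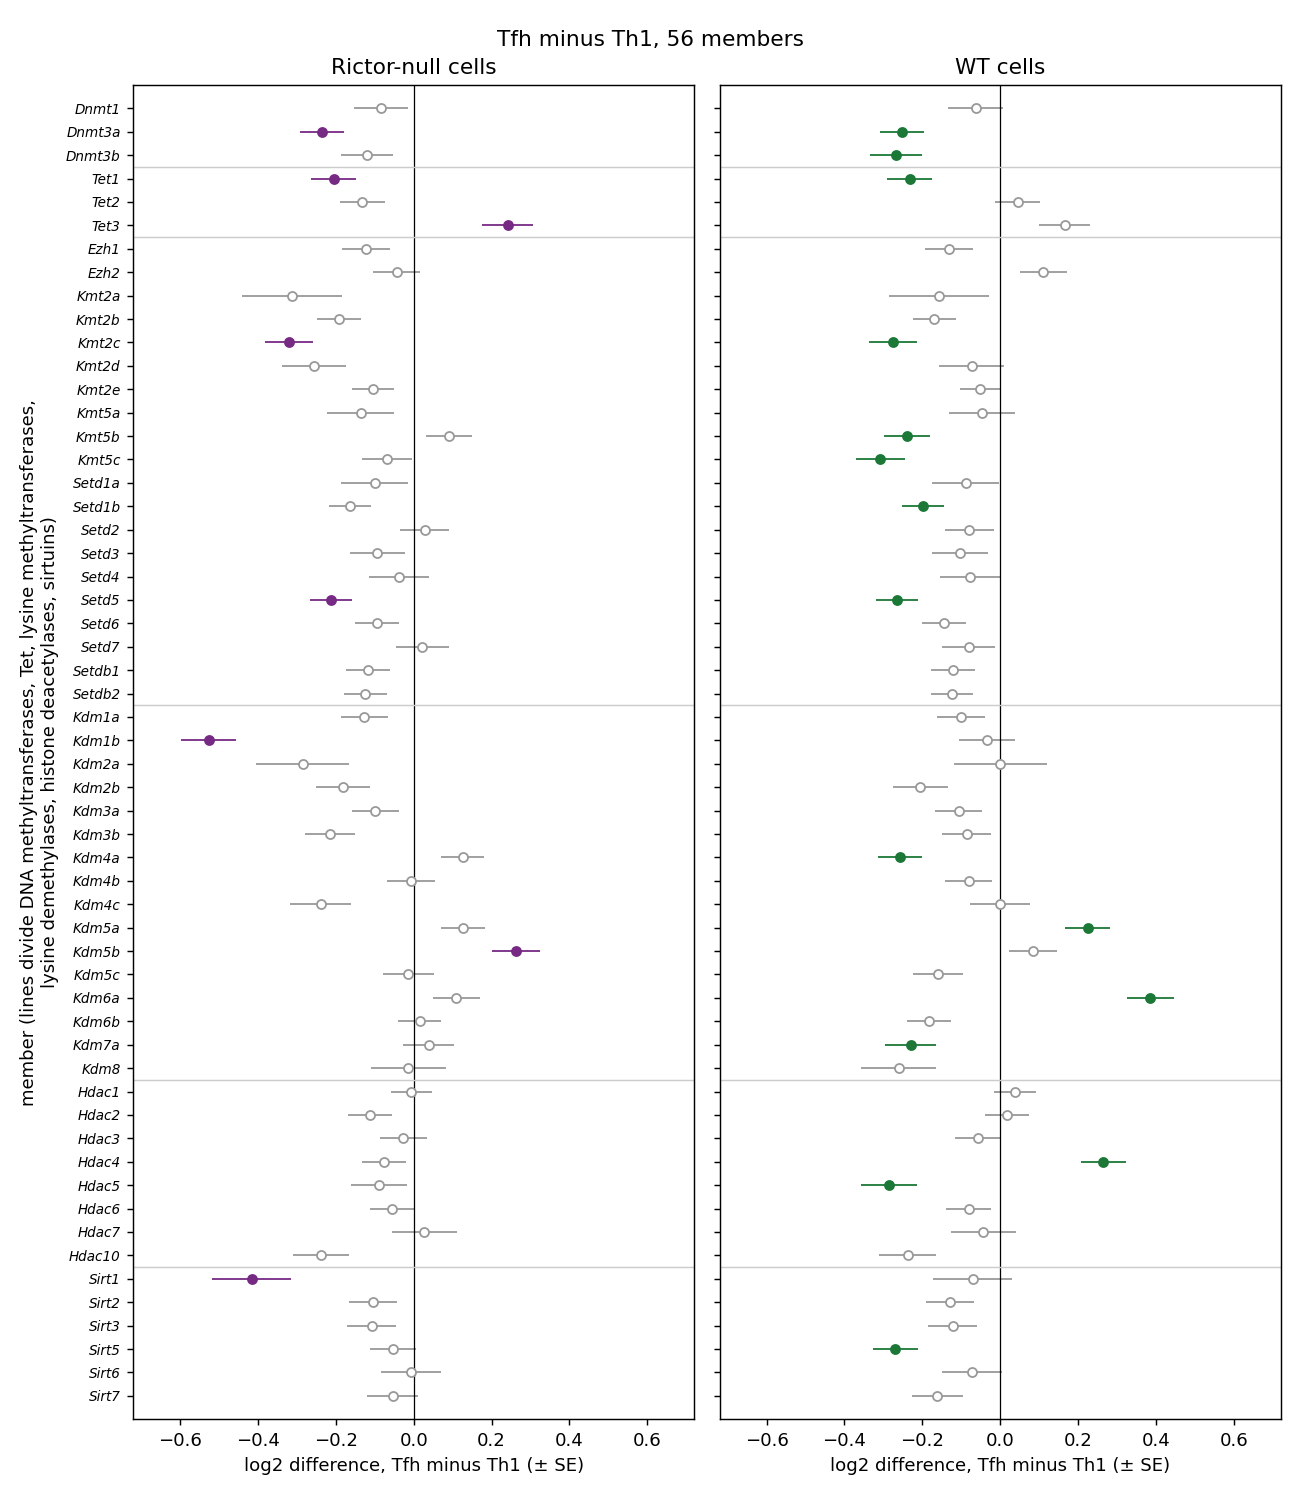
Log2 difference, Tfh minus Th1, with its SE for the 56 members, in Rictor-null cells (left) and WT cells (right), by enzyme family; filled points passed the test. Most filled points lie below 0, among them Dnmt3a, Tet1, Kmt2c and Setd5 in both genotypes.

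Other probe sets of the called members gave a partial check. In Tfh cells, 12 other probe sets past the filter belonged to the 9 members called for genotype, and 10 had the same sign, 3 of them called. In Th1 cells, 7 of 7 had the same sign and 1 was called. For lineage, 7 of 11 had the same sign in Rictor-null cells, with 2 called, and 19 of 24 in WT cells, with 0 called. The called ones in Rictor-null cells belonged to Kmt2c (-0.48, adjusted p = 0.00637) and Setd5 (-0.22, adjusted p = 0.0378). None of these probe sets was called in the opposite direction.

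Other probe sets were also called for some members whose brightest one was not. In Tfh cells, 5 of 51 such probe sets past the filter were called for genotype, where 8.50% of all probe sets of 1 symbol past the filter were. Kdm2a (0.38, adjusted p = 0.0258), Kdm5c (0.29, adjusted p = 0.0223) and Hdac4 (0.33) were higher in Rictor-null Tfh cells, while Kmt2c (-0.29, adjusted p = 0.0277) and Setd3 (-0.34, adjusted p = 0.0326) were lower. In Th1 cells, 4 of 56 were called, where 7.11% of all were. Kdm6b (0.40), Kdm7a (0.29, adjusted p = 0.0106) and Setd5 (0.20, adjusted p = 0.0485) were higher in Rictor-null Th1 cells, and Setd4 was lower (-0.32, adjusted p = 0.0428). For lineage, 6 of 52 were called in Rictor-null cells and 3 of 39 in WT cells, where 7.92% and 8.19% of all were, and 0 of 63 for the interaction, where 0.356% of all were. A member counted as not called is therefore one whose brightest probe set did not pass.

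The 7 members below the filter were Dnmt3l, Hdac8, Hdac9, Hdac11, Kdm4d, Kdm5d and Sirt4, with signals of 9.80 to 37.0. Kdm5d is Y-linked. Without the filter none of the 7 was called in any comparison, and their lowest adjusted p was 0.155.

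The counts of called partners below stand beside 13.6% of all genes called for genotype in Tfh cells, 10.5% in Th1 cells, and 9.72% in Rictor-null and 14.7% in WT cells for lineage. Of 9 other subunits of Polycomb repressive complex 2, Eed, which binds the mark that the complex makes, rose in Rictor-null Tfh cells (0.23, adjusted p = 0.0281), and 0 were called for genotype in Th1 cells, where 1 had an unadjusted p under 0.05. Phf1, an accessory subunit, was lower in Tfh than in Th1 cells in Rictor-null cells (-0.35) and in WT cells (-0.27). Of 10 COMPASS and MLL partners, 0 were called by limma in any comparison. At an unadjusted p under 0.05 there were 2 for genotype in Tfh cells, 1 in Th1 cells, and 2 for lineage in each genotype.

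The other histone methyltransferases held the largest difference between cell types among the partners. Prmt1, the main arginine methyltransferase, had signals of 475 and 428 in Rictor-null Tfh cells against 301 and 291 in WT Tfh cells, and 317 and 328 in Rictor-null Th1 cells against 425 and 408 in WT Th1 cells. It rose in Tfh cells (0.56 ± 0.0631, adjusted p = 0.000251) and fell in Th1 cells (-0.34 ± 0.0631, adjusted p = 0.00570). The difference between these was 0.90 ± 0.0892 (adjusted p = 0.00138), and it was called under all 18 alternatives. The rise in Tfh cells was called under all 19 and the fall in Th1 cells under 17 of 19. Prmt1 had 1 probe set of its own symbol. Of the 16 tested in that list, Smyd2 also rose in Tfh cells (0.36, adjusted p = 0.00249) and Nsd3 in Th1 cells (0.26, adjusted p = 0.0149).

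Of 12 histone acetyltransferases, which oppose the deacetylases, Ncoa3 (0.26, adjusted p = 0.0354) and Kat2a (0.21, adjusted p = 0.0498) rose in Rictor-null Tfh cells. Kat2b (0.39 ± 0.0596, adjusted p = 0.00160) rose in Rictor-null Th1 cells. The call was kept in 9 of 19 alternatives for Ncoa3, 3 of 19 for Kat2a and 18 of 19 for Kat2b. Kat2b was lower in Rictor-null Tfh than in Rictor-null Th1 cells (-0.55, adjusted p = 0.000255). In WT cells 5 of the 12 were lower in Tfh than in Th1 cells, where 11.6% of all genes were, Ncoa3 by the most (-0.44). That count ranged from 0 to 6 over the alternatives. Of 19 tested subunits of deacetylase corepressor complexes, Sap30 of the Sin3 complex (0.43, adjusted p = 0.00260) and Mta2 of NuRD (0.28) rose in Rictor-null Tfh cells. In Rictor-null Th1 cells Mta3 rose (0.25), while Rcor3 (-0.44) and Mbd2 (-0.19) fell. NuRD subunits differed between the lineages in both directions. Chd3 was lower in Tfh than in Th1 cells in Rictor-null cells (-0.24) and in WT cells (-0.38). Chd4 was higher in Rictor-null Tfh than in Rictor-null Th1 cells (0.37, adjusted p = 0.0201). Gatad2b was higher in Tfh than in Th1 cells in Rictor-null cells (0.46, adjusted p = 0.0452) and in WT cells (0.76, adjusted p = 0.00496). Of 3 other Gatad2b probe sets past the filter, 0 had the same sign in Rictor-null cells and 1 in WT cells. The Gatad2b call held in 6 of 19 alternatives in Rictor-null cells, with a difference as low as 0.069, and in 17 of 19 in WT cells. Of 9 tested partners in DNA methylation and base excision, Uhrf1, which brings Dnmt1 to replicated DNA, rose in Rictor-null Tfh cells (0.23, adjusted p = 0.0219). In Th1 cells 0 of the 9 were called for genotype, with 5 at an unadjusted p under 0.05. For lineage, 3 of the 9 were called in Rictor-null cells, where 9.72% of all genes were. Uhrf1 was higher in Tfh cells (0.24), and Mbd1 (-0.29) and Idh2 (-0.22) were lower. These calls held in 13, 7 and 5 of 19 alternatives. In WT cells 0 of the 9 were called for lineage, with 4 at an unadjusted p under 0.05.

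Of the 40 member differences called in the 4 genotype and lineage comparisons and the interaction, 4 held under every alternative setting, those that left out an array included and single other probe sets apart. Kdm2b in Tfh cells ranged from 0.39 to 0.53 over the settings, Kdm2b in Th1 cells from 0.37 to 0.53, Hdac4 in Th1 cells from 0.24 to 0.39, and Kdm1b between the lineages of Rictor-null cells from -0.61 to -0.45. The smallest two-sided p of an exact permutation test of 2 arrays against 2 is 0.333, so every call rests on the spread that limma pools over groups and genes.

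**Figure D4:**
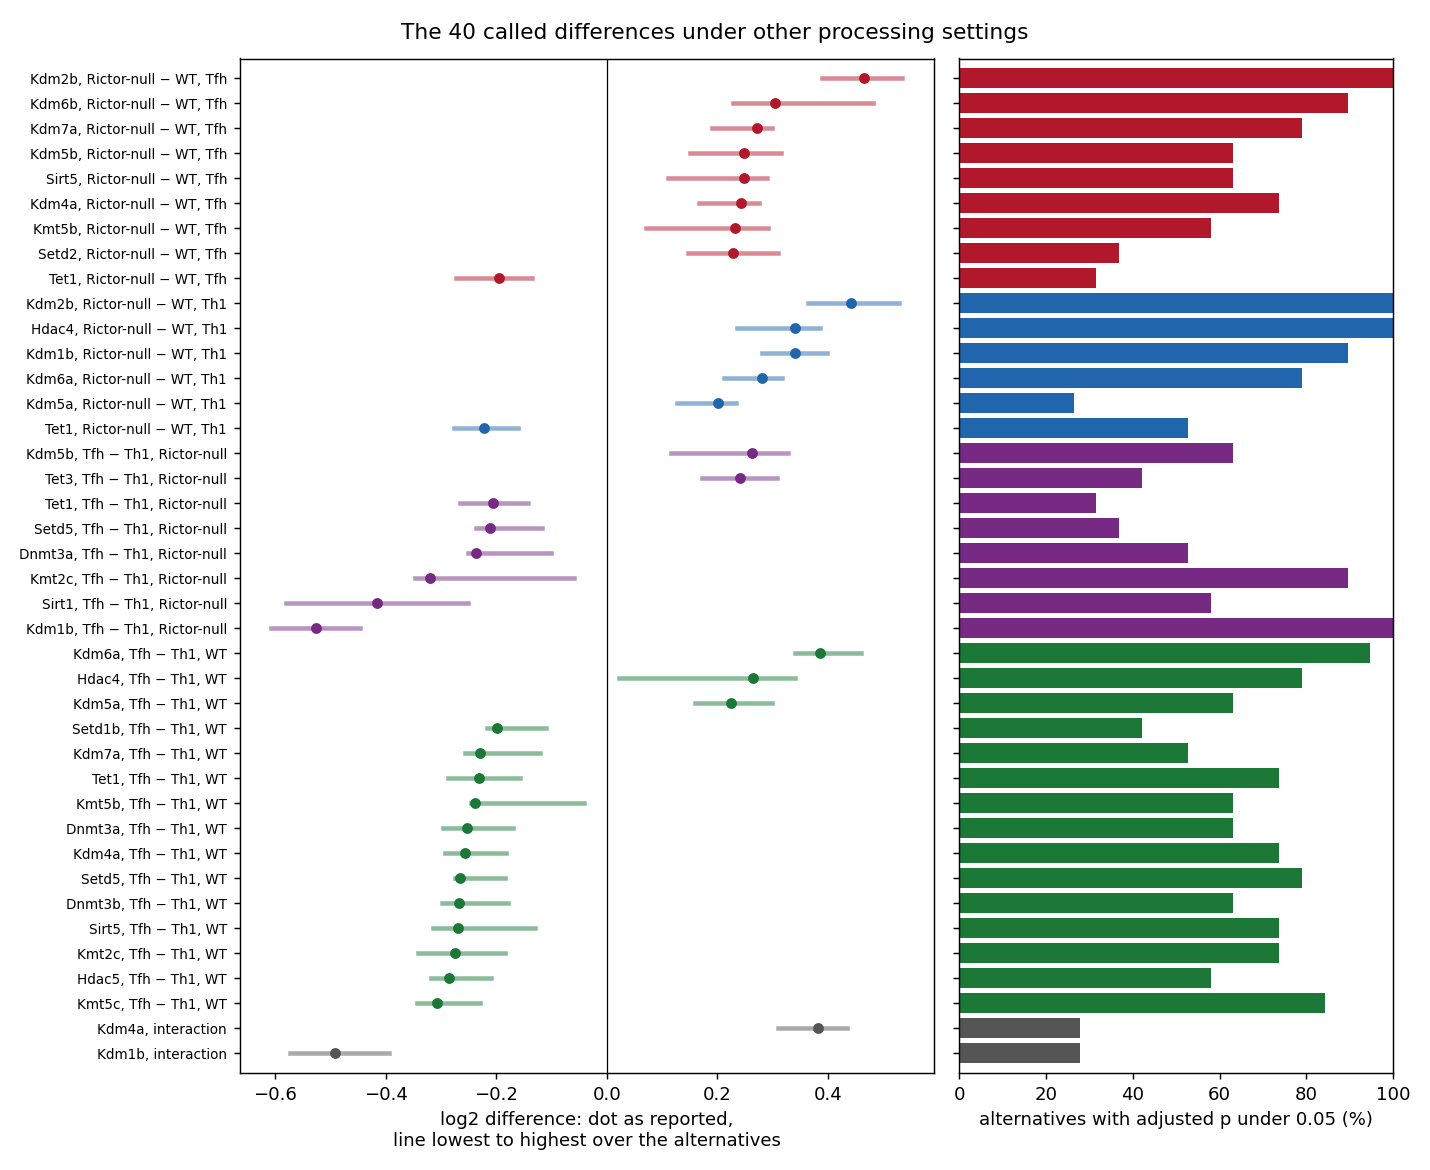
The member differences called, with the reported log2 difference (dot), its lowest and highest value over the alternative settings (line) and the share of settings in which it was called (bars, percent). The bars reach 100% for 4 differences: Kdm2b in both genotype comparisons, Hdac4 for genotype in Th1 cells and Kdm1b for lineage in Rictor-null cells.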

How the data were processed

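The labels describe biotin-labelled cRNA prepared from 100 ng total RNA, hybridised to Affymetrix arrays. The authors deposited probe set intensity values on a linear scale; MAS5 and RMA are named, per the submitters' processing notes, with no role or order. Scaling and background correction are not stated. Signals were transformed to log2 from the deposited intensity after adding 32. Of 45037 probe sets, 34945 had 1 symbol, 932 several and 9160 none. The filter required a signal above the array median on 2 or more of the 8 arrays (23725 kept, 19671 with 1 symbol). The brightest kept probe set stood for a gene, giving 11217 genes.

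Group means over the 8 arrays were estimated in limma 3.58.1 (R 4.3.3), with empirical Bayes moderation (residual degrees of freedom 4, prior 6.70) and Benjamini-Hochberg adjustment over all genes per comparison, called under 0.05. Errors are SE, with a median of 0.0618 over the members for a difference of 2 against 2 arrays. The number of arrays limits the precision. Other probe sets were tested in a fit over all 34945 probe sets of 1 symbol without the filter. The method was tested on simulated data. Figures used matplotlib 3.10.9.

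Groups follow the sample titles, and replicates are biological pools. The comparisons were Rictor-null minus WT in each cell type, Tfh minus Th1 in each genotype, and the interaction. The members, gene lists and displayed genes were chosen with earlier results of these data known. The text names every called member, some but not all called genes of the partner lists, and uncalled members as examples of each family. Members were matched to RefSeq by gene ID (63 of 63). Alternatives were other scalings, pseudocounts, filters, probe set rules, a variance trend, array weights, a replicate block, fewer arrays, each array left out, and the fit without both arrays that stood apart on the third principal component, the last chosen after seeing the data.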

Additional observations from a re-analysis of the deposited data

Results flagged for a closer look

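The genotype difference of 2 members differed between Tfh and Th1 cells by a test of the difference itself. For Kdm1b, the difference in Tfh cells minus that in Th1 cells was -0.49 (log2, SE 0.101, adjusted p = 0.0461 by limma). The genotype difference was -0.15 in Tfh cells, where it did not pass the test, and 0.34 in Th1 cells, where it did. For Kdm4a the difference between the cell types was 0.38 (SE 0.0788, adjusted p = 0.0466), from 0.24 in Tfh cells, where it passed, and -0.14 in Th1 cells, where it did not. Each was called in 5 of 18 alternatives. Kdm1b had 1 probe set, and the other probe set of Kdm4a was below the filter.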

How the results depend on the processing

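The 40 called member differences gave 758 values under the alternatives that keep the brightest probe set or average probe sets; 495 passed the test, 263 did not, and 0 changed sign. Counts of called members moved by over 1.5 times as follows. With quantile normalization they were 5 for genotype in Tfh cells, 8 for lineage in WT cells and 1 for the interaction. With median centring they were 4, 6 and 0, and 5 for lineage in Rictor-null cells. With array weights they were 23 for lineage in WT and 4 in Rictor-null cells. With only the 4 arrays compared they were 4 for genotype in Tfh cells and 3 for lineage in Rictor-null cells. The interaction had 1 call with a pseudocount of 16, 0 with 64, and 0 without the filter. Without both arrays apart on the third principal component (WT Th1 replicate 1, and replicate 2 of Rictor-null Tfh), genotype in Tfh cells had 5 and the interaction 0. Leaving out each array in turn gave 1 to 13 for genotype in Tfh cells, 2 to 7 in Th1 cells, 2 to 7 for lineage in Rictor-null cells, 0 to 20 in WT cells, and 0 to 7 for the interaction. Counts of called partners per list ranged over the alternatives from 0 to 7 for genotype in Tfh cells, 0 to 3 in Th1 cells, 0 to 5 for lineage in Rictor-null cells and 0 to 8 in WT cells; those of the cell cycle list were 1 to 6 for genotype in Tfh cells and 4 to 9 in Th1 cells. The cause of these shifts was not tested.

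Whether replicate numbers pair the samples is not stated in the labels. Deviations of same-numbered arrays correlated between -0.51 and 0.28 over pairs of groups, which does not settle it. With the replicate block, members called were 7 for genotype in Tfh cells, 4 in Th1 cells, 3 for lineage in Rictor-null cells, 11 in WT cells, and 0 for the interaction.

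Of 85 values from other probe sets of the called members, 55 kept the sign and 30 reversed it; the cause was not tested. For genotype in Tfh cells these were Kdm4a -0.0094, Kdm5b -0.045, Kdm7a -0.20 and -0.11, Kmt5b -0.10, and Sirt5 -0.026 and -0.016. In Th1 cells they were Hdac4 -0.035, Kdm5a -0.074 and Kdm6a -0.19. For lineage in Rictor-null cells they were Dnmt3a 0.063, Kdm5b -0.065 and -0.058, Kmt2c 0.58, Setd5 0.079, and Tet1 0.060 and 0.066. In WT cells they were Hdac4 -0.22, Kdm4a 0.069, Kdm5a -0.054, -0.15 and -0.047, Kdm7a 0.21 and 0.22, Kmt2c 0.048, Kmt5b 0.31, Sirt5 0.010 and 0.014, and Tet1 0.10. For the interaction Kdm4a had -0.013.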
